A study of Mus musculus with 2 samples.

Results

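The 10 genes described here code for cytochrome c and for subunits of cytochrome c oxidase that exist as isoforms, most of them as a testis and a somatic form. They were taken by name and form 5 pairs, Cyct with Cycs, Cox6b2 with Cox6b1, Cox7b2 with Cox7b, Cox8c with Cox8a, and Cox4i2 with Cox4i1, of 43026 gene columns in the tables. Testicular tissue of 2-month-old mice (young) and of 24-month-old mice (aged) gave 1 single-cell RNA sequencing library each on the BD Rhapsody system, which captures single cells with barcoded beads in microwells. The labels give no strain, genotype, treatment or number of mice, and they call the cells stroma cells, while germ cell markers mark 3 of the 4 classes described here. Of the 10 genes, 10 are columns of the young and 9 of the aged table. The files held 2771 young cells with 53413783 counts and 6823 aged cells with 66390904 counts, of which 2732 and 5691 were analysed. No difference between the ages has a replicate check, and the intervals at 95% given with levels, ratios and shares reflect counting alone.

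Cytochrome c carries electrons from complex III to cytochrome c oxidase, which is complex IV and passes them to oxygen at the end of the respiratory chain. Male germ cells switch during meiosis from the somatic to testis isoforms of several mitochondrial proteins, and cytochrome c is a textbook case of this switch. Cytochrome c is also released from mitochondria in apoptosis, where it activates the caspase cascade. Leydig cells, which make androgen, start steroid synthesis inside the mitochondrion.

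Classes were named from marker genes on clusters made without the 10 genes and without the other respiratory chain genes. Leydig-like cells numbered 1085 young and 579 aged, spermatocyte-like cells (germ cells in meiosis) 661 and 2395, round spermatid-like cells 464 and 731, and elongating spermatid-like cells 212 and 507. The median counts per cell were 6936 and 4754, 30661 and 16705, 29258 and 16485, and 17974.5 and 4856. A level is given in CPM, the share of a gene in all counts of a class and library, per 1000000. Shares of a pair and ratios of one gene to another are of counts, not corrected for transcript length (655 bases for Cyct and 3123 for Cycs, by the longest coding transcript), and serve to compare classes.

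The stretches of 250 bases before the start of Cyct, Cycs, Cox7b2 and Cox7b show how the 2 members of a pair differ in the sequence before the start, in a pair on autosomes and in a pair whose somatic member is on the X chromosome. They are read 5′ to 3′ on the strand of the gene from RefSeq (build GRCm38.p6), at chr2:76360454-76360703 on the minus strand for Cyct, chr6:50566570-50566819 on the minus strand for Cycs, chr5:71548206-71548455 on the minus strand for Cox7b2 and chrX:106015450-106015699 on the plus strand for Cox7b. Bases shortly after the start were found in a GENCODE M21 transcript of the gene for Cyct and Cox7b, but not for Cycs and Cox7b2. Distances are to the RefSeq start. Capitals mark matches, on either strand, to the full cAMP response element TGACGTCA, its part TGACG, the NRF1 core GCATGCGC and the CCAAT box.

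Cyct: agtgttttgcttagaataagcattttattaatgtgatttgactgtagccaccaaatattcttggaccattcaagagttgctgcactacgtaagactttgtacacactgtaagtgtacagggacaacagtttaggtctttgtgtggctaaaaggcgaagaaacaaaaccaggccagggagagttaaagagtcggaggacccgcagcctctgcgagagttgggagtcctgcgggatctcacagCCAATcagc
Cycs: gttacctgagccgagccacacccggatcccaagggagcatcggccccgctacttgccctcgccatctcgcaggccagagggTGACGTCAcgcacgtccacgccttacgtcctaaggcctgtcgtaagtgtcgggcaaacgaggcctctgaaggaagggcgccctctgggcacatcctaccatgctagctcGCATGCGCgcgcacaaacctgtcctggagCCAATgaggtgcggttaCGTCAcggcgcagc
Cox7b2: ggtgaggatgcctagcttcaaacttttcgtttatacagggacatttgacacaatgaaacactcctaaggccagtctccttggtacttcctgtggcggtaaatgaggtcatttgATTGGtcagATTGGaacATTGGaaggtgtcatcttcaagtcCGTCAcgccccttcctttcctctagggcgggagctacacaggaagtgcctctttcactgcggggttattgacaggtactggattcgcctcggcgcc
Cox7b: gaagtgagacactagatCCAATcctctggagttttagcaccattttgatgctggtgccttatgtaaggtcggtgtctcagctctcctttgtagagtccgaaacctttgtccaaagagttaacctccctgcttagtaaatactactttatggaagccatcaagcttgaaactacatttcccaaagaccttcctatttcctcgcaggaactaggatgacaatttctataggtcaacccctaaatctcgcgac

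The Cycs stretch held 1 full cAMP response element, which starts 169 bases before the start and contains 2 of its 3 matches to TGACG, and 1 NRF1 core 60 bases before it. The Cyct stretch held neither, and its only match was a CCAAT box 9 bases before the start. Over all 32851 such stretches, 1.55% held the full element, 17.8% its part, 2.26% the NRF1 core and 33.8% a CCAAT box. A stretch was found for 7 of the 10 genes, and 7 of 7 held a CCAAT box. Cycs had 23 CG steps, against 6 in Cyct and 5 in Cox7b, with a median of 6 over all stretches. Cox7b2 had 1 match to TGACG and 3 to the CCAAT box. A match is a stretch of letters and no measure of binding.

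The somatic isoforms made up most of the counts of each pair in Leydig-like cells, and the testis isoforms most of them in all 3 germ cell classes, except in a part of the elongating spermatids. In cluster 7, which holds 65.1% of young and 63.9% of aged elongating spermatid-like cells, Cyct had 38.5% (25.3 to 53.0) and 48.5% (30.8 to 66.5) of the counts of its pair with Cycs, against 95.5% and 95.9% in cluster 12. In Leydig-like cells the testis isoforms of 4 pairs summed had 6.28% of the pairs' counts in the young library (5.96 to 6.61) and 7.73% in the aged (7.15 to 8.33). In spermatocyte-like cells they had 99.06% (98.99 to 99.12) and 99.08% (99.04 to 99.13). Round spermatid-like cells stood at 97.7% and 98.0%, and elongating spermatid-like cells at 91.0% (89.98 to 92.0) and 94.6% (93.8 to 95.4). Both libraries thus had the same order of classes, with the highest share in meiosis and a lower share in elongating spermatids.

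**Figure D1:**
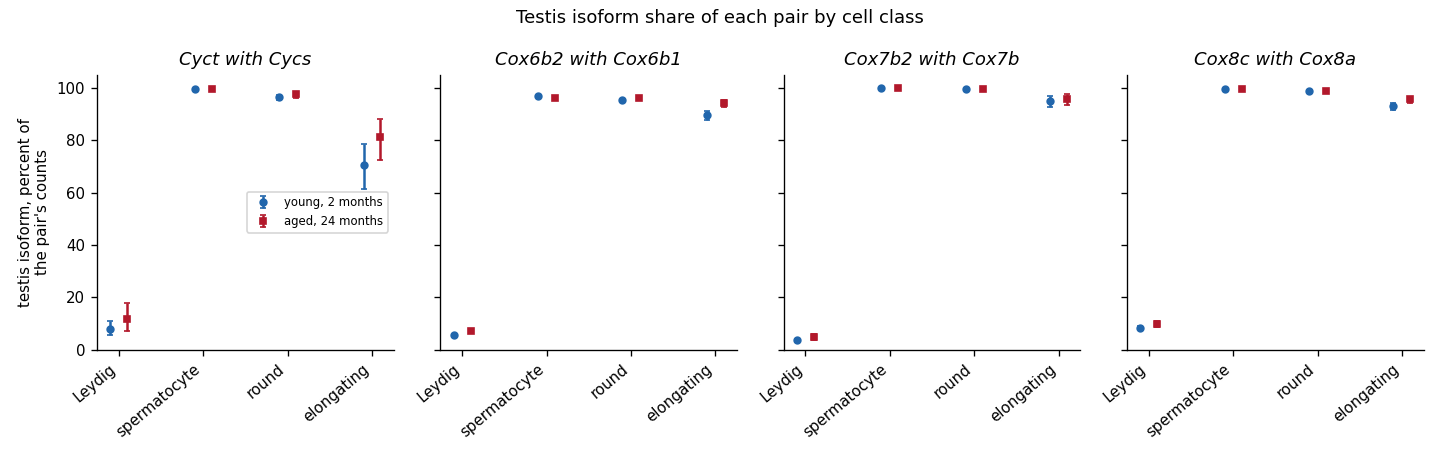
Testis isoform share of the counts of each pair (percent, y axis) in 4 cell classes (x axis), young in blue circles and aged in red squares, with exact Clopper-Pearson intervals at 95%. The shares are under 12% in Leydig-like cells and over 70% in the germ cell classes, with the lowest germ cell value for Cyct with Cycs in elongating spermatid-like cells.

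At least 2-fold higher in spermatocyte-like than in Leydig-like cells were 4 of 4 testis isoforms in both libraries, and at least 2-fold lower 4 of the 5 somatic members. Of all genes with 10 or more counts, 37.7% were as much higher and 39.5% as much lower in the young library, and 42.0% and 32.7% in the aged. Cox4i1 was the somatic member that was not, and Cox4i2 had no value. The median log2 ratio was 4.96 (young) and 4.78 (aged) over the testis isoforms and -5.78 and -5.68 over the somatic members, against -0.22 and 0.18 over all genes tested.

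**Figure D2:**
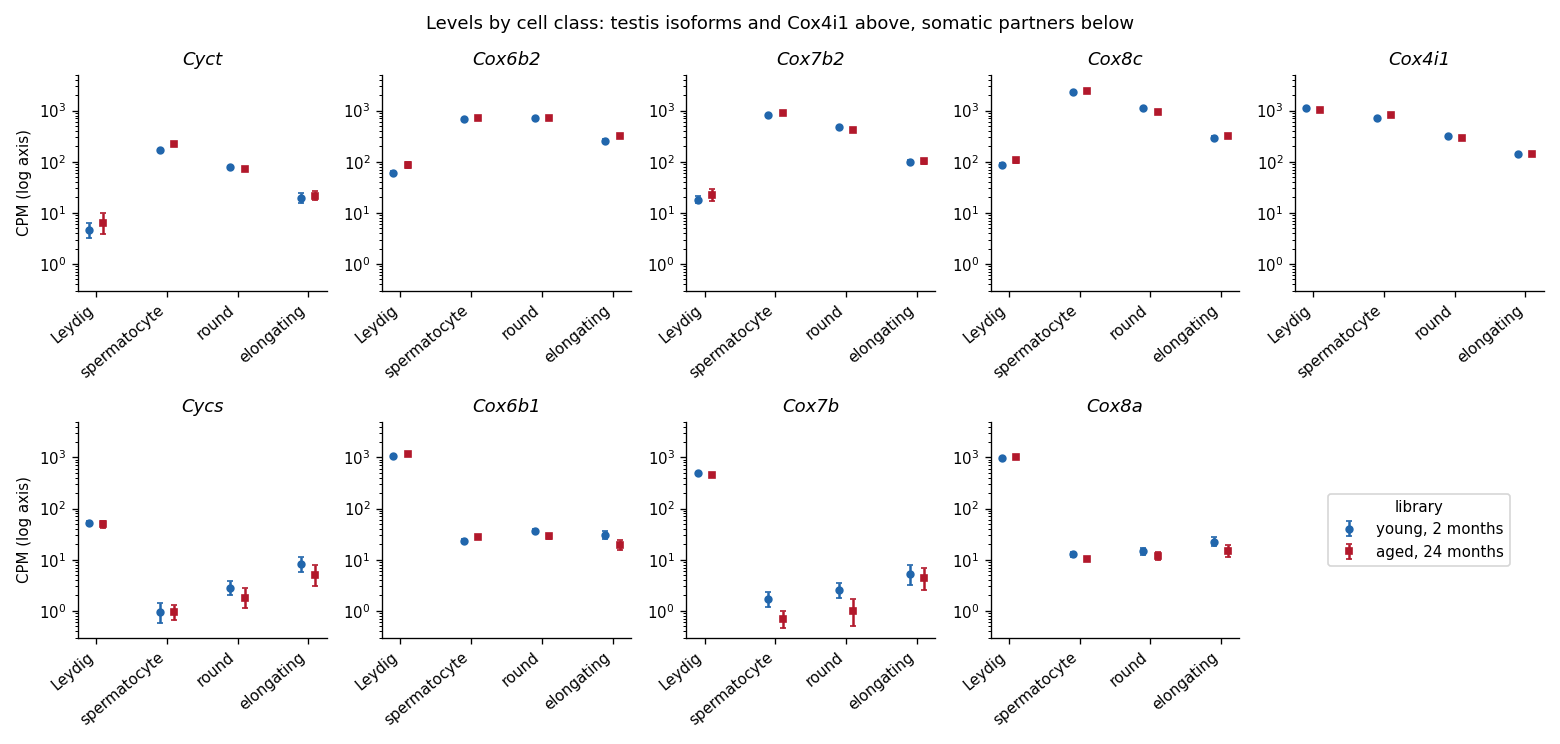
Levels of 9 members (CPM, log axis) in 4 cell classes (x axis), young in blue circles and aged in red squares, with exact Poisson intervals at 95%. The 4 testis isoforms in the upper row are lowest in Leydig-like cells, their partners in the lower row are highest there, and Cox4i1 is high in Leydig-like and spermatocyte-like cells.

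Cytochrome c showed the exchange at the carrier itself. Cyct, the testis cytochrome c (ENSMUSG00000056436.4, chr2:76353942-76360450), was at 4.56 CPM in young and 6.42 in aged Leydig-like cells, 168 and 218 in spermatocyte-like cells, 77.4 and 72.1 in round spermatid-like cells and 19.7 and 21.8 in elongating spermatid-like cells. The spermatocyte-like level was 36.8-fold that of Leydig-like cells in the young library (26.5 to 52.6) and 33.9-fold in the aged (21.4 to 57.2). Cycs, the somatic cytochrome c (ENSMUSG00000063694.5, chr6:50562563-50566538), went the other way, with 52.2 and 49.2 CPM in Leydig-like cells against 0.931 and 0.952 in spermatocyte-like cells. That is 56.1-fold lower in the young (35.8 to 92.7) and 51.7-fold lower in the aged library (35.9 to 76.1).

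Cycs was higher again in spermatids, at 2.83 and 1.82 CPM in round and 8.21 and 5.07 in elongating spermatid-like cells. The round level was 3.04-fold (1.73 to 5.48) and 1.91-fold (1.08 to 3.31) that of spermatocyte-like cells, and the elongating level 2.91-fold (1.79 to 4.69) and 2.79-fold (1.44 to 5.36) the round level. The higher level of that class lay in cluster 7, with 14.5 CPM (9.93 to 20.5) and 11.98 CPM (6.98 to 19.2), from 32 young and 17 aged counts. Cluster 12 had 3 counts in each library, at 1.46 CPM (0.301 to 4.26) and 1.19 CPM (0.245 to 3.47). Counts behind the Cycs values by class are few, 20, 40 and 35 in the young and 38, 22 and 20 in the aged germ cell classes in the same order. As a share of its Leydig-like level Cycs stood at 1.78%, 5.42% and 15.7% in the 3 young classes, while 9 Leydig markers summed stood at 0.309%, 0.465% and 0.451%. In the aged library the shares were 1.93%, 3.69% and 10.3% for Cycs and 0.125%, 0.158% and 0.154% for the markers. The part of Leydig cell RNA in the Cycs counts was not tested.

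The Cycs gene has 4 near copies among annotated transcripts, with at least 95% identity over 200 bases or more. The copies had 29 counts in the young and 12 in the aged file, against 566 and 273 for Cycs, and how reads that match several copies were counted is not given in the sources used here. Cox7b had 2 such copies with 13 and 14 counts, and no other member had one. Cyct and Cycs align over 311 bases with 78.1% identity.

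Cox6b2 and Cox6b1 code for a subunit that joins both monomers of the oxidase dimer on the side of the intermembrane space. Cox6b2 (ENSMUSG00000051811.14, chr7:4751792-4753094) had 687 and 718 CPM in spermatocyte-like, 726 and 721 in round and 257 and 317 in elongating spermatid-like cells. It differs from the other testis isoforms in a similar level in round spermatid-like and spermatocyte-like cells when each class is taken as 1. Within the spermatocyte-like class its level differed between clusters, as given below. The ratio of round over spermatocyte-like cells was 1.06 (1.03 to 1.08) in the young and 1.004 (0.981 to 1.03) in the aged library. The same ratio was 0.461 (0.431 to 0.494) and 0.331 (0.309 to 0.355) for Cyct, 0.594 and 0.468 for Cox7b2, and 0.477 and 0.385 for Cox8c. Cox6b1 (ENSMUSG00000036751.7, chr7:30616861-30626151) had 1056 and 1148 CPM in Leydig-like cells and between 19.3 and 35.8 in the germ cell classes. The Cox6b1 share of the pair was the largest left to a somatic isoform in spermatocyte-like cells, where Cox6b2 had 96.8% (96.5 to 97.1) and 96.3% (96.1 to 96.5).

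Cox7b2 and Cox7b code for a small subunit of the oxidase in the inner membrane. Cox7b2 (ENSMUSG00000049387.10, chr5:71442824-71548205) had 18.1 and 22.5 CPM in Leydig-like, 818 and 889 in spermatocyte-like, 486 and 416 in round and 99.7 and 102 in elongating spermatid-like cells. Cox7b (ENSMUSG00000031231.4, chrX:106015700-106022450) is the X-linked member, with 487 and 462 CPM in Leydig-like cells and 1.72 and 0.702 in spermatocyte-like cells. It was 283-fold lower there in the young (205 to 403) and 658-fold lower in the aged library (453 to 995). Those Cox7b levels were 0.353% and 0.152% of the Leydig-like level, beside 0.309% and 0.125% for the summed Leydig markers. In round spermatid-like cells they were 0.522% and 0.215%, beside 0.465% and 0.158%. Elongating spermatid-like cells had Cox7b at 5.16 and 4.31 CPM, from 22 and 17 counts. That was 2.03-fold (1.14 to 3.54) and 4.35-fold (1.96 to 9.98) the round level. As a ratio to the Leydig-like level it was 0.0106 and 0.00933, above the marker shares of that class given with Cycs. The part of Leydig cell RNA in these counts was not tested.

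Sex chromosomes are silenced in spermatocytes as a part of meiosis. Many other X-linked genes showed low values too, and the part of silencing in the Cox7b level was not tested. Of 14 X-linked mitochondrial genes, Cox7b among them, 14 were at least 2-fold lower in spermatocyte-like than in Leydig-like cells in both libraries. Of all X-linked genes with 10 or more counts, 78.1% (young) and 70.6% (aged) were as much lower, against 38.2% and 31.6% of autosomal genes. The median over 590 such X-linked genes was -5.11 on the log2 scale in the young library, against -0.12 over 18351 autosomal genes. In the aged library the medians were -4.82 over 564 and 0.26 over 18858 genes. Slc25a5, a somatic ADP/ATP carrier, had 734 and 626 CPM in Leydig-like and 2.33 and 1.25 in spermatocyte-like cells. Ndufa1, a complex I subunit with the most counts of the 14, kept more of its level, with 826 and 714 CPM against 14.1 and 24.98. Cycs, Cox6b1 and Cox8a are autosomal and were low as well, so low germ cell levels of somatic members were not limited to the X chromosome.

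Cox8c and Cox8a code for the smallest nuclear-encoded subunit. Cox8c (ENSMUSG00000043319.5, chr12:102899316-102900526) had 87.3 and 108 CPM in Leydig-like, 2319 and 2464 in spermatocyte-like, 1106 and 949 in round and 295 and 323 in elongating spermatid-like cells. Cox8a (ENSMUSG00000035885.5, chr19:7215153-7217616) had 953 and 1008 CPM in Leydig-like cells, and 12.7 and 10.3, 14.5 and 11.7, and 22.5 and 14.96 in the 3 germ cell classes. Spermatocyte-like cells thus had 75.3-fold less Cox8a in the young (66.7 to 85.3) and 97.6-fold less in the aged library (88.0 to 108), and 26.6-fold (24.7 to 28.7) and 22.9-fold (20.4 to 25.7) more Cox8c.

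Cox4i1 and Cox4i2 code for subunit 4, which binds ATP and ADP as regulators of the enzyme. Cox4i2, known from lung and for its response to low oxygen, had 1 count in the whole young library, in a cell of no named class, and no column in the aged table. Cox4i1 (ENSMUSG00000031818.12, chr8:120668222-120674207) is thus the one member without a measured testis partner. It had 1106 and 1044 CPM in Leydig-like, 713 and 826 in spermatocyte-like, 317 and 285 in round and 140 and 145 in elongating spermatid-like cells. It was 1.55-fold lower in spermatocyte-like than in Leydig-like cells in the young (1.51 to 1.59) and 1.26-fold lower in the aged library (1.22 to 1.31), far less than any other somatic member. Cox4i1 shares 352 bases on the opposite strand with Emc8, and the sources used here do not say whether reads were counted by strand. All 5986 bases of the Cox4i1 gene also lie within Gm20388, annotated as protein-coding on the same strand, which has no counts here.

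Along the germ cell clusters the testis isoforms ran in different courses, shown from cluster 10, with the most spermatocyte marker counts, through clusters 3, 2 and 1 to the round spermatid-like clusters 4, 8 and 13 and the elongating spermatid-like clusters 12 and 7. Young Cyct stood at 325, 266, 199, 137, 86.4, 75.0, 50.8, 31.1 and 9.08 CPM in this order, and aged Cyct at 355, 282, 207, 126, 81.5, 75.7, 46.6, 27.7 and 11.3. It was highest in cluster 10 and lower at each later cluster, with overlapping intervals only between clusters 4 and 8 in both libraries, and between clusters 10 and 3 in the young, of which cluster 10 has 12 young cells. Cox7b2 held 1064, 965 and 989 CPM over the clusters 10, 3 and 2 in the young and 991, 979 and 993 in the aged library, before it was at 707 and 637 in cluster 1 and at 46.7 and 61.3 in cluster 7.

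Cox6b2 was lower in cluster 1 (627 and 572 CPM) than in cluster 10 (1072 and 953), and then higher again in the round spermatid-like clusters 4 (739.6 and 711) and 8 (733 and 749). It was at 414 and 433 CPM in cluster 12 and at 111 and 110.0 in cluster 7. Cox4i1 ran from 1091 and 1021 CPM in cluster 10 to 140.0 and 139 in cluster 12, and its values in clusters 12 and 7 had overlapping intervals. Cox8c ran from 2941 and 2672 CPM to 236 and 251. In the elongating clusters the transcripts of protamines and transition proteins, Prm1, Prm2, Tnp1 and Tnp2, are abundant (Prm1 at 28496 CPM in young and 22844 in aged elongating spermatid-like cells, against 234 and 118 in round ones), and fewer molecules of a member cannot be told apart there from more of these.

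**Figure D3:**
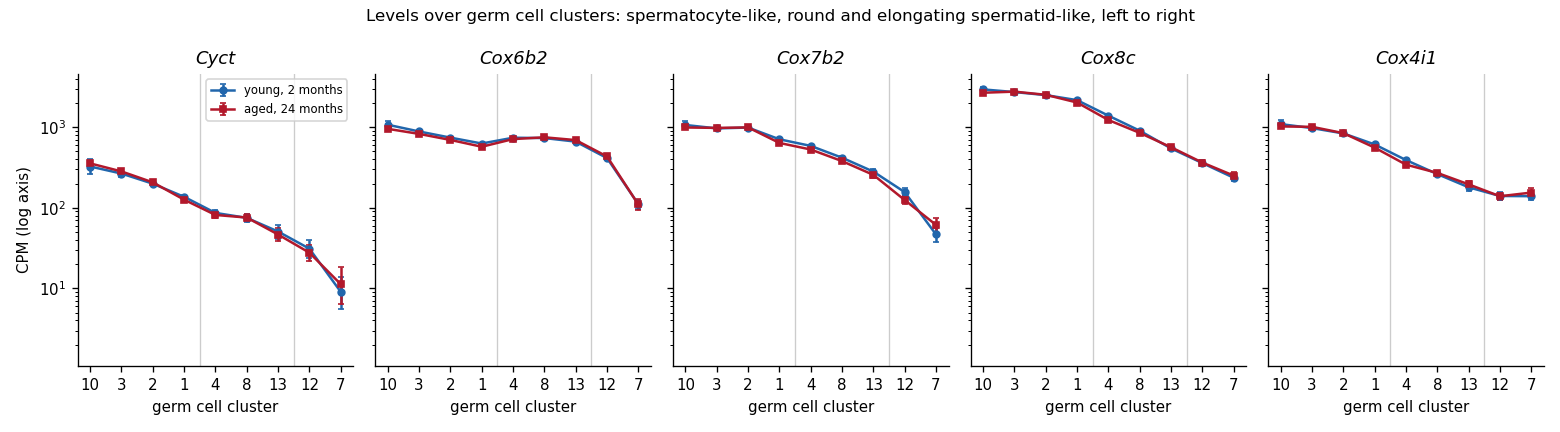
Levels (CPM, log axis) of the 4 testis isoforms and Cox4i1 over 9 germ cell clusters, with grey lines where the class changes, young in blue circles and aged in red squares, and exact Poisson intervals at 95%. Cyct is lower at each step from left to right, Cox8c and Cox4i1 are lower in the elongating than in the spermatocyte-like clusters, Cox6b2 stays at 662 CPM or more in the young round spermatid-like clusters, and the libraries lie close to each other in each cluster.

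Single cells showed the same separation. Among cells with at least 10 counts of the 8 paired genes other than Cox4i1 and Cox4i2, spermatocyte-like ones had 90% or more of these counts from testis isoforms in 661 of 661 cases (young) and 2233 of 2236 (aged). Of 1004 young Leydig-like cells, 792 had 10% or less and 212 (21.1%) lay between 10% and 90%, and of 392 aged ones 298 and 94 (24.0%). None of these Leydig-like cells reached 90%, and the highest were at 65.5% and 68.7%. Elongating spermatid-like cells lay between these limits in 24 of 101 young (23.8%, 15.9 to 33.3) and 9 of 112 aged cells (8.04%, 3.74 to 14.7). The aged values rest on 112 of 507 cells, since the others had fewer counts.

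**Figure D4:**
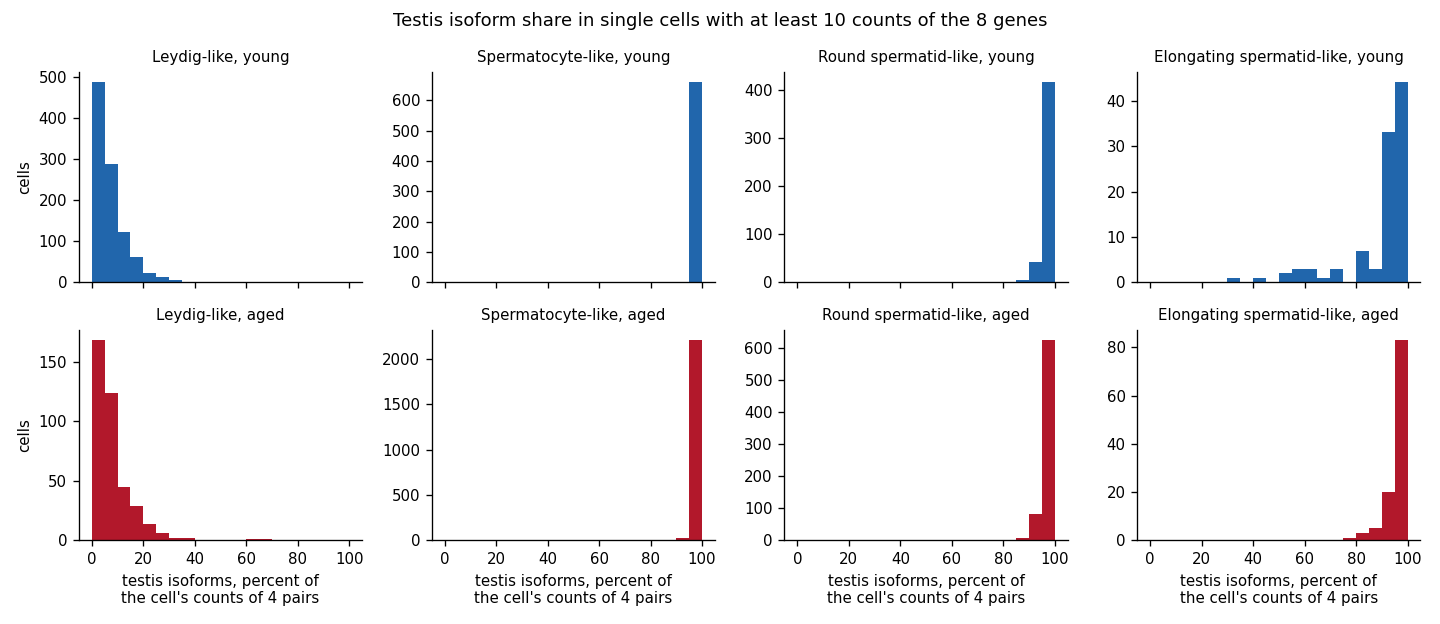
Number of cells (y axis) by the share of testis isoforms in the cell's counts of 4 pairs (percent, x axis, bins of 5), for cells with at least 10 such counts, in 4 classes of the young (blue) and the aged library (red). Spermatocyte-like cells lie at 90% or more save for 3 aged cells, Leydig-like cells lie mostly under 20%, and elongating spermatid-like cells spread more widely in the young library.

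Testis isoforms were counted in Leydig-like cells at 3.35% to 13.1% of the level in the whole library, and transcripts of protamines and transition proteins, which spermatids make, were counted there too. In young Leydig-like cells Cyct had 4.65% of its library level, Cox7b2 3.499%, Cox8c 6.24% and Cox6b2 11.0%, beside 11.2% for Prm1, Prm2, Tnp1 and Tnp2 summed. In the aged library they had 4.08%, 3.35%, 5.88% and 13.1%, beside 6.42%. In young macrophage-like cells, which should lack all of these, the shares were 6.06% for Cyct, 4.31% for Cox7b2, 5.52% for Cox8c, 4.02% for Cox6b2 and 14.7% for the protamines and transition proteins. In aged macrophage-like cells they were 29.0%, 29.7%, 28.0%, 20.7% and 13.4% in the same order.

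Cox6b2 stood out among them in the young library. Its level was 60.9 CPM in young Leydig-like (55.6 to 66.6) and 22.3 in young macrophage-like cells (12.5 to 36.8), whose intervals do not overlap, while those of Cyct, Cox7b2 and Cox8c do. In the aged library the order was the reverse, with 86.7 CPM in Leydig-like and 137 CPM in macrophage-like cells. Most testis isoform counts of the aged macrophage-like cells came from 2 cells, as given below. A Cox6b2 count was found in 32.5% of young Leydig-like and 9.45% of macrophage-like cells (median counts 6936 and 5014), and in 11.0% (9.17 to 12.98) and 4.72% (1.75 to 10.0) after thinning each cell to 2000 counts, where the intervals overlap. For each 100 counts of Cox8c there were 69.8 of Cox6b2 in young Leydig-like cells (62.0 to 78.5) and 80.5 in aged ones (67.7 to 95.6). That lies near round spermatid-like cells (65.6 and 76.0), below elongating spermatid-like cells (87.0 and 98.0) and above both spermatocyte-like (29.6 and 29.1) and macrophage-like cells (28.8, 15.1 to 52.0, and 26.7, 16.3 to 42.2). Cox7b2 stood at 20.8 and 20.9 per 100 counts of Cox8c in Leydig-like cells. That is below spermatocyte-like (35.3 and 36.1), round (43.9 in both) and elongating spermatid-like cells (33.8 and 31.5). Whether Leydig cells transcribe Cox6b2 was not tested.

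Among spermatocyte-like cells 97.7% (young) and 87.9% (aged) had a Cyct count, and 3.32% and 3.11% of Leydig-like cells did. Thinned to 2000 counts, the shares were 26.6% and 35.6%, and 0.922% and 1.33%. Young macrophage-like cells had a Cyct count in 3.15% of cells, and in none of 127 after thinning (0 to 2.86%).

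Aged macrophage-like cells had 57.7% of the 4 pairs' counts from testis isoforms (51.6 to 63.7), against 11.7% in young ones (9.48 to 14.3). Of the 157 testis isoform counts in the 70 aged cells, 121 came from 2 cells, and the share was 25.9% (18.8 to 34.0) without them. All 70 aged cells came from cluster 15, which held 38 of the 127 young ones. The 2 cells were singled out after their values had been seen. In the 579 aged Leydig-like cells, the 2 cells with the most such counts held 85 of 626.

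Between the ages the testis isoforms and Cox4i1 were less than 1.5-fold apart in each of the 4 classes, while other somatic members were further apart in some germ cell classes. At least 1.5-fold apart were 0 of 9 measured members in Leydig-like cells, where 10.8% of all genes tested were as much higher and 15.2% as much lower in the aged library. In spermatocyte-like cells 1 of 9 was lower (Cox7b) and none higher, with 19.3% of genes higher and 13.2% lower. In round spermatid-like cells 2 of 9 were lower (Cycs and Cox7b) and none higher, with 8.34% and 8.85% of genes. In elongating spermatid-like cells 3 of 9 were lower (Cycs, Cox6b1 and Cox8a) and none higher, with 12.7% and 8.76% of genes. All of the members so far apart were somatic isoforms in germ cells. With the called doublets kept, 4 of 9 members were as far apart in Leydig-like cells, the 4 testis isoforms, with log2 ratios from 0.70 (Cox6b2) to 1.28 (Cyct).

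**Figure D5:**
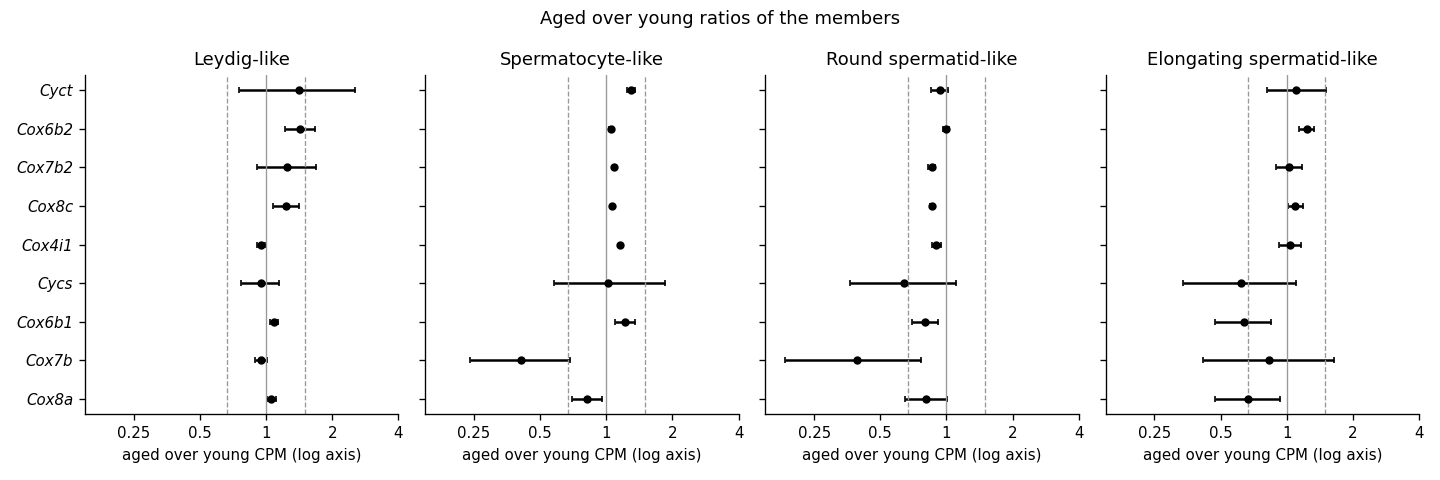
Aged over young ratios (log axis) of 9 members in 4 classes, with exact conditional binomial intervals at 95%; the solid line marks equal levels and the dashed lines a 1.5-fold difference. The ratios of the testis isoforms lie within the dashed lines in every class, while some of their intervals, mostly in Leydig-like cells, cross them. The lowest ratios are of somatic isoforms with few counts in germ cells. Wide intervals are seen for those isoforms and for Cyct in Leydig-like cells.

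Those somatic isoforms are low in germ cells, and the level of summed Leydig markers in the same classes was lower in the aged library too. Aged over young, the ratio of Cox7b was 0.407 in spermatocyte-like (0.240 to 0.684) and 0.390 in round spermatid-like cells (0.185 to 0.766), and that of the 9 summed Leydig markers 0.311 and 0.263. Elongating spermatid-like cells had ratios of 0.617 (0.338 to 1.10) for Cycs, 0.637 (0.473 to 0.852) for Cox6b1 and 0.664 (0.472 to 0.928) for Cox8a, beside 0.263 for the markers. The part of Leydig cell RNA in these differences was not tested. When each cell weighed the same, the log2 ratio of Cox7b in spermatocyte-like cells was 0.12, and those of Cycs and Cox8a in elongating ones were 0.25 and 0.38. With free RNA taken off in proportion to the protamine and transition protein counts of Leydig-like cells, the log2 ratios of Cox6b1 and Cox8a in elongating cells were 0.67 and 1.46, so the direction of these small levels turned with the processing.

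Testis isoforms and Cox4i1 in spermatocyte-like cells were slightly higher in the aged library when the class was taken as 1. The ratio was 1.30 for Cyct (1.25 to 1.35), 1.16 for Cox4i1 (1.14 to 1.18), 1.09 for Cox7b2 (1.07 to 1.11), 1.06 for Cox8c (1.05 to 1.07) and 1.05 for Cox6b2 (1.02 to 1.07). The libraries differ in which clusters make up that class: clusters 3 and 10, where Cyct is highest, held 64 of 661 young (9.68%) and 1070 of 2395 aged cells (44.7%). Within cluster 1 the ratios were 0.921 for Cyct, 0.912 for Cox6b2, 0.901 for Cox7b2, 0.934 for Cox8c and 0.913 for Cox4i1, all on the other side of equality. Within cluster 3 they lay between 0.933 (Cox6b2) and 1.06 (Cyct). Over 40 such values, for 5 genes in 8 germ cell clusters, the ratio ranged from 0.797 to 1.31 with a median of 0.999, and 27 of the 40 intervals held 1.

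In round spermatid-like cells the aged over young ratio was 0.932 for Cyct (0.852 to 1.02), 0.994 for Cox6b2 (0.966 to 1.02), 0.857 for Cox7b2 (0.826 to 0.889), 0.858 for Cox8c (0.838 to 0.879) and 0.899 for Cox4i1 (0.860 to 0.940). Elongating spermatid-like cells had 1.23 for Cox6b2 (1.14 to 1.34), and in the clusters 12 and 7 by themselves 1.05 and 0.993. In Leydig-like cells the somatic members lay between 0.943 (Cycs) and 1.09 (Cox6b1), and Cox6b2 was at 1.42 (1.21 to 1.66) with 60.9 and 86.7 CPM. Cluster 0 made up 97.1% of young but 10.9% of aged Leydig-like cells and cluster 5 most of the rest, so the Leydig-like comparison is largely one between 2 clusters.

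The testis share of single pairs was higher in the aged library, with intervals apart, for Cox6b2 with Cox6b1 in Leydig-like cells (5.45% and 7.02%), round (95.3% and 96.2%) and elongating spermatid-like cells (89.5% and 94.3%), for Cox7b2 with Cox7b in spermatocyte-like cells (99.79% and 99.92%), and for Cox8c with Cox8a in spermatocyte-like (99.46% and 99.58%) and elongating spermatid-like cells (92.9% and 95.6%). The Cox6b2 share was lower in aged than in young spermatocyte-like cells, as given above. After thinning to 2000 counts a cell, 0 pairs had a higher testis share in the aged library with intervals apart, in any of the 4 classes. Thinning leaves fewer counts and so wider intervals, and it cannot tell a smaller difference from fewer counts. Without thinning, the intervals of Cyct with Cycs overlapped in all 4 classes, with 70.6% and 81.1% in elongating spermatid-like cells.

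The rest of complex IV did not follow one course from Leydig-like to spermatocyte-like cells. Of 10 other subunits, 1 was at least 2-fold higher and 5 lower in the young library, where 37.7% of all genes were higher and 39.5% lower, and 2 higher and 4 lower in the aged, where 42.0% and 32.7% were, with median log2 ratios of -1.06 and -0.85. Cox6a1, with the most counts of them, had 4014 and 4306 CPM in Leydig-like and 351 and 373 in spermatocyte-like cells. Ndufa4, a subunit of the oxidase in spite of its name, was at 398 and 367 against 2.00 and 3.83, and Cox7a1, known from heart and muscle, at 89.3 and 37.1 against 0.465 and 0.0752. Cox5a was higher in spermatocyte-like cells, with 639 and 598 CPM against 261 and 264. Of the mitochondrially encoded core subunits, mt-Co1 had 6257 and 6643 CPM in Leydig-like and 778 and 1120.1 in spermatocyte-like cells, while mt-Co2 stood near 2 CPM in Leydig-like cells of both libraries (2.15 and 2.14) and at 0.326 in spermatocyte-like cells.

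Assembly factors of the oxidase went in both directions. Of 22 measured, 3 were at least 2-fold higher and 11 lower in the young and 3 and 10 in the aged library, with medians of -1.06 and -0.79. Of all genes, 37.7% were as much higher and 39.5% lower in the young library, and 42.0% and 32.7% in the aged. Coa4 was higher in spermatocyte-like cells (64.9 and 77.2 CPM, against 4.81 and 4.99), and Coa7 lower (0.652 and 0.877, against 18.4 and 9.99). Cox17, which carries copper for the assembly of the oxidase and had the most counts of the list, had 94.3 and 132 CPM against 242 and 268.

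Complex III, which reduces cytochrome c, had 0 of 9 genes at least 2-fold higher and 4 lower in both libraries. Cyc1, which codes for cytochrome c1, the direct electron donor of cytochrome c, was lowest, with 108 and 96.7 CPM in Leydig-like and 5.49 and 10.0 in spermatocyte-like cells. Uqcrq, with the most counts, had 1086 and 1109 CPM against 1462 and 1722, and Uqcrfs1, the iron-sulfur protein, 201 and 189 against 276 and 310. Complex I had 0 of 36 higher and 17 and 16 lower, complex II 0 of 4 higher and 2 lower in both, and complex V 0 of 18 higher and 11 and 9 lower. The shares of all genes were 37.7% higher and 39.5% lower in the young and 42.0% and 32.7% in the aged library. The medians of these 4 complexes lay between -1.34 and -0.63 over both libraries.

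Genes around cytochrome c in cell death had 2 of 10 members at least 2-fold higher in both libraries and 7 (young) or 6 (aged) lower, where 39.5% and 32.7% of all genes were lower and 37.7% and 42.0% higher. Diablo, released from mitochondria with cytochrome c, had 62.2 and 51.4 CPM in Leydig-like and 569 and 602 in spermatocyte-like cells, and Bcl2l1, which codes for an inhibitor of that release, 15.5 and 24.6 against 138 and 141. Aifm1, the X-linked apoptosis-inducing factor, had 81.2 and 86.3 CPM against 0.140 and 0.226.

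Other mitochondrial proteins with a testis form showed an exchange like that of the 4 pairs. Slc25a31, the testis ADP/ATP carrier, had 2.28 and 4.28 CPM in Leydig-like and 80.7 and 83.2 in spermatocyte-like cells, while its somatic relative Slc25a4 had 207 and 197 against 1.54 and 1.15. Pdha2, the testis form of a pyruvate dehydrogenase subunit, had 9.25 and 3.92 CPM against 182 and 216, and its X-linked partner Pdha1 84.2 and 98.1 against 0.326 and 0.1504. Tomm20l had 5.19 and 4.28 CPM against 133 and 83.5, but Tomm20 stayed at 160 and 146 against 103 and 104.

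Between the ages the median log2 ratios of these lists lay between -0.13 and 0.24 in Leydig-like cells (-0.01 over all genes), with at most 1 member of a list at least 1.5-fold higher and 1 lower. Of all genes tested in Leydig-like cells, 10.8% were as much higher and 15.2% as much lower, so few would be counted in a short list anyway. In spermatocyte-like cells 5 of 22 assembly factors were at least 1.5-fold higher, near the 19.3% of all genes, and 0 lower (13.2%), with a median log2 ratio of 0.30 against 0.02 over all genes, and 4 of 9 genes around cytochrome c in cell death were higher and 1 lower (median 0.49). Complex I had 1 of 36 higher and 1 lower. Of 11 measured X-linked mitochondrial genes, Cox7b among them, 3 were higher and 6 lower (median -0.69). Aifm1, which is in that list and in the cell death list, had the low levels given above. Of 7 genes of the other testis and somatic pairs, 0 were higher and 3 lower (median -0.42). These are values of classes whose clusters differ between the libraries, as for Cyct.

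Over 28 points, each a cluster with at least 50 cells in 1 library, the level of Cyct was most like that of Iqcg (Pearson r of log2 levels 0.96), Chd1l (0.96), Enkd1 (0.95), Adam2 (0.95), which codes for a sperm surface protein, and Zfp35 (0.95), out of 7015 genes. Cox6b2 was most like Dkkl1 (0.95), Ttc6 (0.94) and Agbl5 (0.94), Cox7b2 most like Lyar (0.99), Tmbim7 (0.98) and Ggnbp1 (0.98), and Cox8c most like Rsph1 (0.99), Spdya (0.99) and Mad2l2 (0.98). Cycs was most like Creg1 (0.97), Gnas (0.96) and Eid1 (0.96). Among the members, Cox7b2 with Cox8c had an r of 0.99 and Cyct with Cox6b2 0.82, Cyct with Cycs -0.74, and Cox4i1 lay between -0.24 and 0.10 with the 4 testis isoforms. The points share libraries and depth, and these values describe likeness only.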

How the data were processed

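Each library came as 1 table of raw counts (cells by genes), as deposited by the authors without scaling. A header in the aged table names the BD WTA Multiplex Rhapsody Analysis Pipeline 1.7.1 and STAR 2.5.2b, while Cell Ranger 2.11 and mm10 stand in the submitters' processing notes. Which of these made the young table, and if counts are of molecules or of reads, is not given in the sources used here. Of the cell indices, 35 occur in both files. Lowest cell totals were 3215 (young) and 186 (aged).

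Cells needed at least 500 counts and 200 genes, with no more than 25% from mitochondrially encoded genes, and 38 young and 121 aged doublets called by Scrublet (scanpy 1.11.5) were removed. Clustering was done on the joint libraries, uncorrected for batch (2000 variable genes, 40 components, 15 neighbours, leidenalg 0.10.2, resolution 1, seed 1), leaving out 136 genes, the members and the respiratory lists. Clusters were named by the mean z-score of markers (at least 0.5, 3 markers, margin 0.15), or left unnamed (6.08% of young, 21.9% of aged cells). The limit that left cluster 16, with Leydig and macrophage markers, unnamed was set after it had been seen. Counts were summed by class and library. Intervals are exact (Poisson for CPM, conditional binomial for ratios, Clopper-Pearson for shares) and were tested on simulated data. With 1 library per age no p-value was made. Log2 ratios between the ages used 0.5 added to each count. The members, lists and rules were chosen with earlier results of these data known. All members are named, and of each list the most abundant gene and those furthest from equality, some of them left out here, and all 7 genes of the other testis and somatic pairs, beyond that rule. Symbols (98.4% found) and coordinates come from GENCODE M21. Alternatives to the filters, clustering, naming, scaling, depth and free RNA were run 1 at a time.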

Additional observations from a re-analysis of the deposited data

Results flagged for a closer look

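Of the cells left without a class name, 3 clusters held testis isoform counts above the level in Leydig-like cells, and they enter no class comparison above. They are among the 28 points over which likeness between genes was taken. Cluster 6, with 529 aged cells and a median of 924 counts, had the testis isoforms summed at 1481 CPM (1378 to 1589), against 223 in aged Leydig-like cells. Its leading genes by fold were mitochondrially encoded.

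Cluster 9, with 396 aged cells and a median of 1498 counts, stood at 2282 CPM (2173 to 2394). Cluster 11 stood at 3103 CPM in 114 young cells (3044 to 3162), against 171 in young Leydig-like cells, and at 2878 CPM in 230 aged cells (2820 to 2937). Clusters 6 and 9 are made up almost wholly of aged cells, with 0 and 3 young ones.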

How the results depend on the processing

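No paired analysis was possible because each age has 1 library and the labels give no shared replicate number. All 186 recomputed log2 ratios of spermatocyte-like over Leydig-like cells kept their direction, and 4 of 4 testis isoforms stayed at least 2-fold higher. The measure of pairs with most counts from the testis isoform was added after the alternatives had been seen. Among 537 age ratios 69 changed sign, 64 of them with a log2 value under 0.5 in size as reported. In cluster 1 alone 7 of 9 did, and the cause of the changes was not tested.

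The number of members at least 1.5-fold apart in Leydig-like cells (0 as reported) was 1 with equal weight for each cell, thinned to 2000 counts and in cluster 0 alone, and 4 with doublets kept. In spermatocyte-like cells (1 as reported) it was 0 with equal weights, thinned and in cluster 3 alone, and 2 in cluster 1 alone. In round spermatid-like cells (2 as reported) it was 1 when thinned, with the lowest young total required in both, with a 10% mitochondrial limit, with doublets kept, at resolution 0.5, with free RNA taken off, with 50 counts or more and in cluster 4 alone. In elongating spermatid-like cells (3 as reported) it was 1 with equal weights, at resolution 0.5 and 2, and in clusters 7 and 12 alone, and 4 with the lowest young total and by score.

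Pairs with a higher testis share in the aged library in Leydig-like cells (1 as reported) numbered 0 when thinned and in cluster 0 alone, and 4 with doublets kept. In spermatocyte-like cells (2 as reported) they numbered 0 when thinned, with cells named by score, with free RNA taken off and in clusters 1, 2 and 3 alone. In round spermatid-like cells (1 as reported) they numbered 0 when thinned, with the lowest young total, the 10% limit, doublets kept, resolution 0.5 or free RNA taken off, and in clusters 4, 8 and 13 alone. In elongating spermatid-like cells (2 as reported) they numbered 1 with the 10% limit, resolution 2 or the members in the clustering, and 0 when thinned, at resolution 0.5, with free RNA taken off and in clusters 7 and 12 alone. Cyct with Cycs is the pair that changed among pairs with most counts from the testis isoform, which in elongating spermatid-like cells (4 as reported) numbered 3 in the young library when thinned, with the 10% limit, at resolution 0.5 or 2, by score and in cluster 7 alone, and 3 in the aged library at resolution 0.5 and in cluster 7 alone.

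With equal weights the log2 age ratio turned to 0.12 for Cox7b in spermatocyte-like cells and to 0.25 and 0.38 for Cycs and Cox8a in elongating spermatid-like cells. With free RNA taken off it turned to 0.67 and 1.46 for Cox6b1 and Cox8a in the latter and to 0.68 for Cox6b1 in round spermatid-like cells (-0.32 as reported), and it was 4.85 for Cox6b1 in spermatocyte-like cells (0.28 as reported). Few counts limit the somatic isoforms in germ cells, such as 12 of Cox7b in aged round spermatid-like cells, and Cyct in aged Leydig-like cells, with 18.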

Other observations

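In cluster 9 the testis isoforms stood in another proportion than in the named germ cell classes. Its 396 aged cells had Cox6b2 at 1761 CPM (1666 to 1860), above the 953 CPM of aged cluster 10, which had the highest level among the named germ cell clusters. Cyct was at 26.1 CPM, Cox7b2 at 106 and Cox8c at 389 in the same cells. The cells are shallow, and no class was given to them.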
